A study of Mus musculus with 2 samples.

Results

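The genes examined here encode the autosomal components of the phagocyte NADPH oxidase, the membrane subunit gene Cyba, the cytosolic subunit genes Ncf1 and Ncf4, and the small GTPase genes Rac1 and Rac2, together with Nos2, which encodes the inducible nitric oxide synthase. They were taken as a list of 6 gene symbols, and all 6 were found among 21924 protein-coding genes of GENCODE release M21 (mm10). The mark is H3K36me3, trimethylation of lysine 36 on histone H3, mapped by chromatin immunoprecipitation and sequencing in unstimulated macrophages grown from the bone marrow of mice of strain C57BL/6J. The series has 1 group of 2 biological replicates, labelled as separate biosamples from 1 donor record, with sex and age given as not collected. How far their spread is technical cannot be told. No second condition was analysed here, and with 2 paired values an exact two-sided sign permutation cannot give a p below 0.5, so all comparisons are descriptions between genes and between replicates.

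The phagocyte oxidase moves electrons from NADPH across a membrane to oxygen and makes superoxide, which phagocytes use against ingested microbes. Its membrane core is a heterodimer of gp91phox (Cybb, on the X chromosome) and p22phox (Cyba). On activation cytosolic proteins, p47phox (Ncf1) and p40phox (Ncf4) among them, join the core together with GTP-bound Rac. Nos2 makes nitric oxide from arginine and is known as a gene that macrophages switch on when they meet interferon-gamma or bacterial products. H3K36me3 is laid down by Setd2 behind elongating RNA polymerase II, so it lies over transcribed gene bodies.

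Values are the percent of a gene body, from its first to its last annotated base over all transcripts, that lies under deposited peaks. Replicate 1 held 32098 peaks over 28.5 Mb and replicate 2 held 58505 over 79.4 Mb. The lists give no read counts, the depth is unknown, and a gene with no peak was undetected and not shown to lack the mark. Among marker genes of the cells that could be present, 8 of 10 macrophage genes reached 20% in replicate 2 and 4 in replicate 1. Of all coding genes, 23.3% and 7.64% did. Of 10 neutrophil genes, the cell type best known for this oxidase, only the receptor gene Csf3r had a peak (22.8% in replicate 1 and 68.2% in replicate 2), and S100a8, S100a9, Mpo and Elane had none. None of the 8 T cell, 6 B cell and 5 fibroblast genes had a peak.

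All 5 oxidase genes carried H3K36me3 peaks in both replicates, and Nos2 carried none in any of the 4 deposited lists. A peak lay in the body of 5 of the 6 genes in each replicate, where 29.1% of all coding genes had one in replicate 1 and 38.3% in replicate 2. With a gene called marked from 20% of its body, 4 members were marked in replicate 1, where 7.64% of coding genes were, and 5 in replicate 2, where 23.3% were. Marked in both replicates were Cyba, Ncf1, Ncf4 and Rac2, 4 of 6, against 7.62% of coding genes. Rac1 stood just under the limit in replicate 1, at 15.9%. The median over the 6 genes was 33.1% in replicate 1 and 45.3% in replicate 2, while the median over all coding genes was 0% in each.

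**Figure D1:**
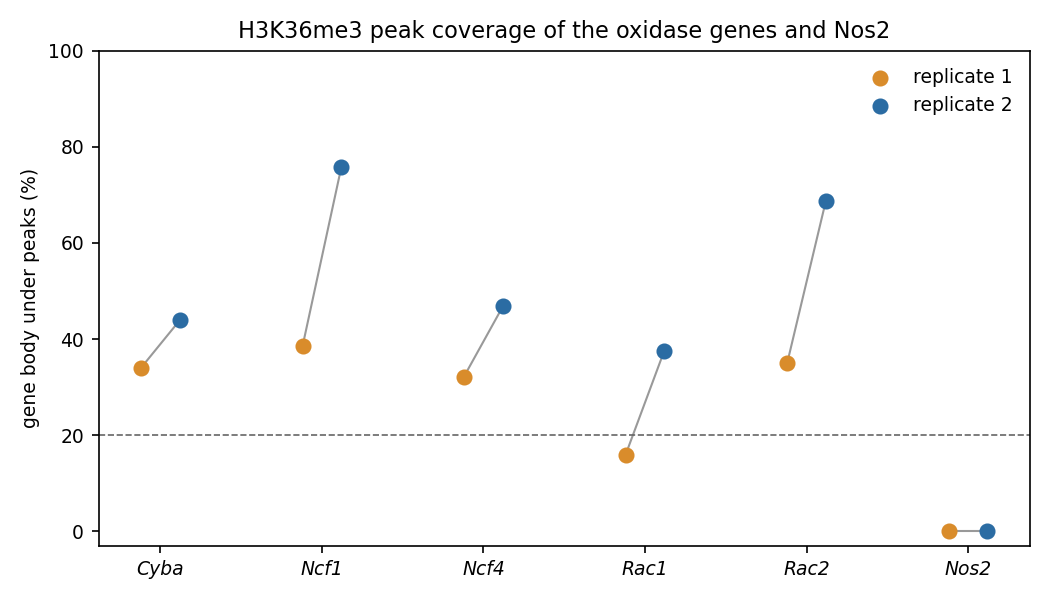
Percent of each gene body under H3K36me3 peaks (y axis) in replicate 1 (orange) and replicate 2 (blue), with the 20% limit dashed and a line joining the replicates of a gene. The 5 oxidase genes lie between 15.9% and 75.7%, each higher in replicate 2, and Nos2 lies at 0% in both.

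The order of the genes was led by Ncf1 in each replicate, at 38.5% and 75.7%, followed by Rac2 at 34.9% and 68.8%. Cyba had 34.0% and 43.9%, and Ncf4 had 32.2% and 46.8%. These 4 genes lay between 32.2% and 38.5% in replicate 1, so their order there rests on small differences, and Cyba and Ncf4 changed places between the replicates. Rac1 was the lowest of the 5 oxidase genes in each replicate, at 15.9% and 37.6%. These places hold for whole gene bodies. Outside its overlap with the opposite-strand gene Gtf2ird2, Ncf1 had 0% in replicate 1 and 58.5% in replicate 2, below Rac2 in each. As means over the replicates, Ncf1 had 57.1% ± 26.3, Rac2 51.9% ± 23.9, Ncf4 39.5% ± 10.3, Cyba 39.0% ± 7.01 and Rac1 26.8% ± 15.3 (SD, n = 2 each). Neighbours in this order differed by less than the larger of their SDs, but replicate 2 was higher for all 5 genes. The SDs therefore hold a shift that the genes share and do not measure how sure the order is. No base in the 5 kb upstream of any of the 6 genes was covered in either replicate. Set against the 1670 marked genes of the genome, whose median was 29.2% in replicate 1 and 59.0% in replicate 2, Ncf1 and Rac2 were above both medians, while Cyba and Ncf4 were above the first and below the second. Coverage in replicate 2 was 1.97 times that in replicate 1 for Ncf1 and for Rac2, close to the median of 1.90 over marked genes, 1.45 times for Ncf4, 1.29 times for Cyba and 2.36 times for Rac1. The lower and upper quartiles of that ratio over marked genes were 1.58 and 2.27, so Cyba and Ncf4 lay below the lower quartile. Rac1 was not among these marked genes, as it fell short of the limit in replicate 1. That limit leaves out genes with low coverage in replicate 1, so the ratio of Rac1 cannot be placed against these quartiles.

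Most of what replicate 1 covered in these genes was also covered in replicate 2, and less so the reverse. Of 19 peaks in replicate 1, 18 had at least 50% of their length under 1 replicate 2 peak, and of 20 peaks in replicate 2, 8 had the reverse. With 50% of both peaks required, 8 of 19 were shared. Replicate 2 covered 79.4 Mb against 28.5 Mb in replicate 1, which favours the first direction. The matching share over all peaks is not given here. By bases, between 90.9% (Ncf4) and 100% (Ncf1) of what was covered in replicate 1 was also covered in replicate 2. In the other direction the share was 73.4% for Cyba, 62.6% for Ncf4, 50.8% for Ncf1, 48.6% for Rac2 and 41.3% for Rac1. The authors' enrichment over background ran from 2.39 to 4.34 in the replicate 1 peaks (median 3.39, against 3.22 over its whole list) and from 2.90 to 6.77 in the replicate 2 peaks (median 4.51, against 3.83). A −log10 q of at least 5 was reached by 5 of the 19 replicate 1 peaks (26.3%, against 20.9% of that whole list) and by 19 of the 20 replicate 2 peaks (95.0%, against 69.3%).

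Cyba encodes p22phox, the membrane subunit that stabilises its catalytic partner and offers the docking site for p47phox. The gene (ENSMUSG00000006519.11) spans chr8:122424776-122432930 on the minus strand, 8.16 kb, and lies inside Gm20388, an opposite-strand coding record of 4435 kb that was covered by 2.62% and 8.10% outside Cyba. Its covered bases lay wholly in the 50% of the body nearest the 3′ end, which was 68.0% covered in replicate 1 and 87.8% in replicate 2, against 0% of the other 50% in each. The first covered base was 4.96 kb from the start in replicate 1 and 4.43 kb in replicate 2, near the end of the 5085 bp first intron. From there to the gene end, 86.8% and 96.1% of the bases were covered. Exon 1 had no covered base and exons 2, 3 and 4 were covered completely in both replicates. Exon 5 was missed in replicate 1 and covered completely in replicate 2. Of all 3628 coding genes of 5 to 10 kb, 2.70% were covered at least as widely as Cyba in replicate 1 and 11.2% in replicate 2. The peak at the 3′ end ran 1.26 kb past the gene in replicate 1 and 1.92 kb in replicate 2. It reached Il17c, an opposite-strand cytokine gene of 1.62 kb whose nearest edge is 1.14 kb away, and gave it a coverage of 7.47% and 48.5%. The upstream neighbour Mvd, a gene of sterol synthesis 0.670 kb away, had no peak.

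Ncf1 encodes p47phox, the organiser that is phosphorylated on activation and carries the cytosolic complex to p22phox. The gene (ENSMUSG00000015950.13) spans chr5:134220053-134229625 on the minus strand, 9.57 kb. In replicate 2 a pair of peaks, at chr5:134219305-134222011 and chr5:134222146-134227436, both with an enrichment of 6.77, the highest in these genes, covered all but 0.134 kb between the first covered base, 2.19 kb from the start, and the gene end. In replicate 1 the first covered base was 5.29 kb from the start and the peaks took in exons 8 and 9 and most of exon 11. Only 0.441% of coding genes of 5 to 10 kb were covered at least as widely as Ncf1 in replicate 2, and 1.82% in replicate 1. Exons 1 to 3 had no covered base in either replicate, while exons 4 to 7 were covered completely in replicate 2 and not at all in replicate 1. The last 4.30 kb of Ncf1, 44.9% of the gene, overlaps the opposite-strand gene Gtf2ird2, and peaks cannot be assigned to a strand. That overlap was covered by 85.6% in replicate 1 and 96.9% in replicate 2. The part of Ncf1 outside it was covered by 0% and 58.5%, and the rest of Gtf2ird2 by 0% and 4.23%. All replicate 1 coverage of Ncf1 therefore lay where the annotations overlap. Without that overlap 3 of the 6 genes were marked in both replicates.

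Ncf4 encodes p40phox, which binds phosphatidylinositol 3-phosphate and supports oxidase activity on phagosomes. The gene (ENSMUSG00000071715.12) spans chr15:78244801-78262580 on the plus strand, 17.8 kb, and overlaps no other coding gene. It held 5 peaks in replicate 1, as many as Rac2, and 7 in replicate 2, the most of the 6 genes, in 2 blocks. The first block began 4.99 kb from the start in replicate 1 and 4.87 kb in replicate 2, within the 5294 bp first intron, and covered exons 4 to 7 completely in both. At its 5′ edge the replicates differed, with exon 2 complete in replicate 1 and bare in replicate 2, and exon 3 the reverse. The second lay at the 3′ end, where exon 10 was complete in both and exons 8 and 9 in replicate 2 only. Between them 3.27 kb was bare in replicate 2, all within intron 7. In replicate 1 the bare stretch was 5.53 kb and ran on through exons 8 and 9 into intron 9. No peak of the pooled or replicated list filled the stretch that both replicates left bare. With the body cut into 10 equal bins from 5′ to 3′, bin 8 had no covered base in either replicate, a break before later coverage that 21 of 1659 marked genes of at least 2 kb showed (1.27%). That share is for bin 8 only, taken because it was bare in Ncf4. Breaks at other bins were not counted, so it does not measure how common such gaps are. Bases soft-masked as repeats made up 24.4% of the gap in replicate 2, against 16.4% of the whole gene, and the part of repeats in the gap was not tested. Exon bases were covered more than intron bases, 47.9% against 30.2% in replicate 1 and 81.6% against 42.3% in replicate 2. Of 3999 coding genes of 10 to 20 kb, 5.80% were covered at least as widely in replicate 1 and 16.8% in replicate 2. The 3′ block ran past the gene end by 0.424 kb and 1.34 kb, and the next coding gene on that side, the cytokine receptor gene Csf2rb2, lay 19.9 kb away and was itself covered by 21.1% and 51.6%.

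**Figure D2:**
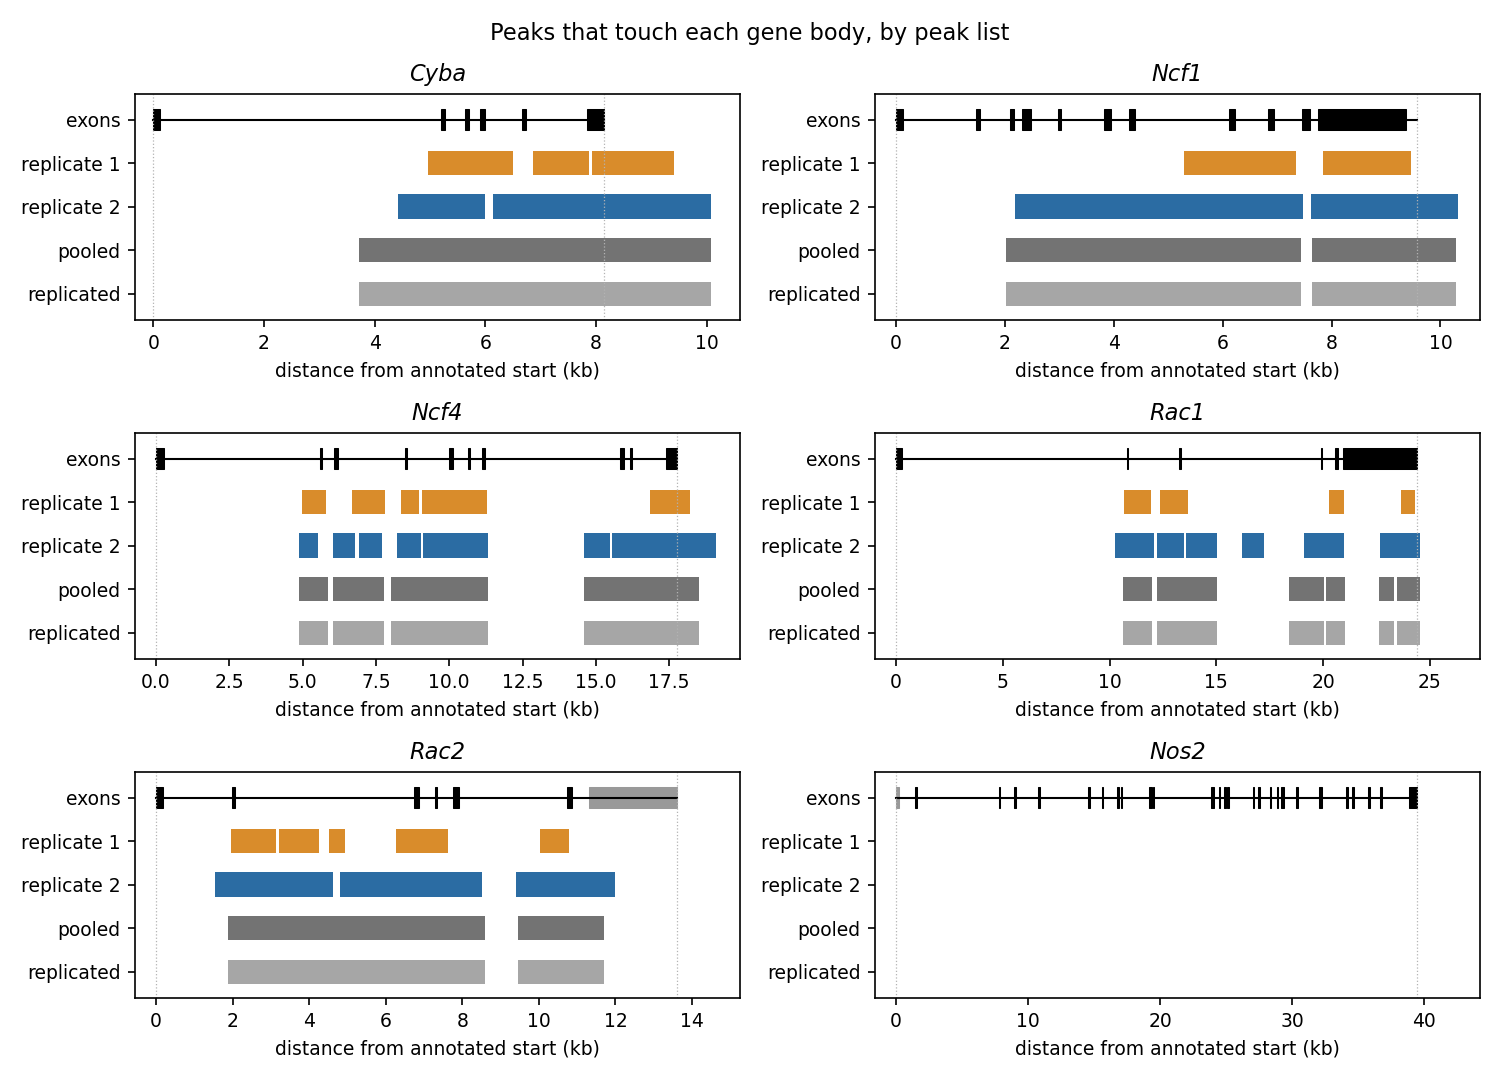
Peaks touching each gene in the 4 deposited lists, drawn by distance from the annotated start in kb (x axis, one scale per gene), with dotted lines at the gene's start and end. Exons of 1 transcript per gene are boxes, black where they hold coding bases and grey where they hold none. Every oxidase gene is bare at its start, Ncf4 has a gap in both replicates that begins about 11.3 kb from its start, and Nos2 has no peak.

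Rac1 and Rac2 encode small GTPases that act as molecular switches and, bound to GTP, take part in the active oxidase. Rac1 is expressed in most tissues and Rac2 mainly in blood cells. Rac1 (ENSMUSG00000001847.14) spans chr5:143503634-143528036 on the minus strand, 24.4 kb. Rac2 (ENSMUSG00000033220.7) spans chr15:78559167-78572783 on the minus strand, 13.6 kb. The genes are built alike: coding exons 2 to 5 have the same lengths of 72, 118, 63 and 160 bp in each, and over all 576 coding bases they are 77.1% identical. Exon 3 was covered completely in both genes and both replicates. Exon 4 was covered completely in Rac2 in both replicates and in Rac1 in replicate 2, with no covered base in Rac1 in replicate 1. These 2 exons are shown 5′ to 3′ from GRCm38.p6, because they are the same part of each gene under the mark, with the bases that differ between the genes in capitals. Exon 3 lies at chr5:143514669-143514786 in Rac1 and chr15:78565914-78566031 in Rac2, and exon 4 at chr5:143508096-143508158 and chr15:78565441-78565503.
Rac1 exon 3: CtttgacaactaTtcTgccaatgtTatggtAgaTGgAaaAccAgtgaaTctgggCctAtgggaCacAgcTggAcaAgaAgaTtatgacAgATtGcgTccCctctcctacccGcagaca
Rac2 exon 3: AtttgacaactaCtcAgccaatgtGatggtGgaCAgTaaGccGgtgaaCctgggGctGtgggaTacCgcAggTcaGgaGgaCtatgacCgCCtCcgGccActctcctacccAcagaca
Rac1 exon 4: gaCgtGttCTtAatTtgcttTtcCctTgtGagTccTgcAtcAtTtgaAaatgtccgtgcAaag
Rac2 exon 4: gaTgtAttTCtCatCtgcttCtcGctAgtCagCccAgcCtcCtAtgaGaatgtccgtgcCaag
The genes differ at 27 of 118 bases in exon 3 and at 17 of 63 in exon 4. Differences are spread along both exons.

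Measured over the whole body, Rac1 was covered less than Rac2. In replicate 1 Rac1 had 15.9% and Rac2 34.9%, and in replicate 2 Rac1 had 37.6% and Rac2 68.8%. The difference, Rac1 minus Rac2, was -19.0 percentage points in replicate 1 and -31.2 in replicate 2, a mean of -25.1. The number of covered bases differed less, 3883 in Rac1 against 4758 in Rac2 in replicate 1 and 9179 against 9367 in replicate 2. The enrichment summed over covered bases and divided by the body length was 0.576 in Rac1 against 1.09 in Rac2 in replicate 1 and 1.58 against 3.32 in replicate 2. Of 5149 coding genes of 20 to 50 kb, 16.0% were covered at least as widely as Rac1 in replicate 1 and 20.4% in replicate 2, and of those of 10 to 20 kb 4.40% and 4.45% at least as widely as Rac2.

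The genes differed most in the 5′ 50% of the body, of which 10.3% was covered in Rac1 against 46.5% in Rac2 in replicate 1 and 14.7% against 74.3% in replicate 2. The first covered base of Rac1 was 10.7 kb from its start in replicate 1 and 10.3 kb in replicate 2, at the end of a first intron of 10533 bp, against 1.95 kb and 1.55 kb in Rac2, whose first intron is 1807 bp. In both genes exon 1 was bare and exon 2 was covered completely in both replicates. Over the 3′ 50% alone, Rac1 had 21.5% against 23.4% in Rac2 in replicate 1 and 60.5% against 63.2% in replicate 2, a mean difference of -2.28 points. Over exon bases the order turned round, with 22.7% in Rac1 against 11.6% in Rac2 in replicate 1 and 53.3% against 42.4% in replicate 2. Over coding bases Rac1 had 58.9% against 53.0% in replicate 1 and 76.0% against 93.9% in replicate 2, so no order held in both. Most exon bases lie in the last exon of each gene. Exon 6 of Rac1, 3472 bp, was covered by 19.3% and 52.7%, and exon 7 of Rac2, 2319 bp with no coding base, by 0% and 30.4%.

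**Figure D3:**
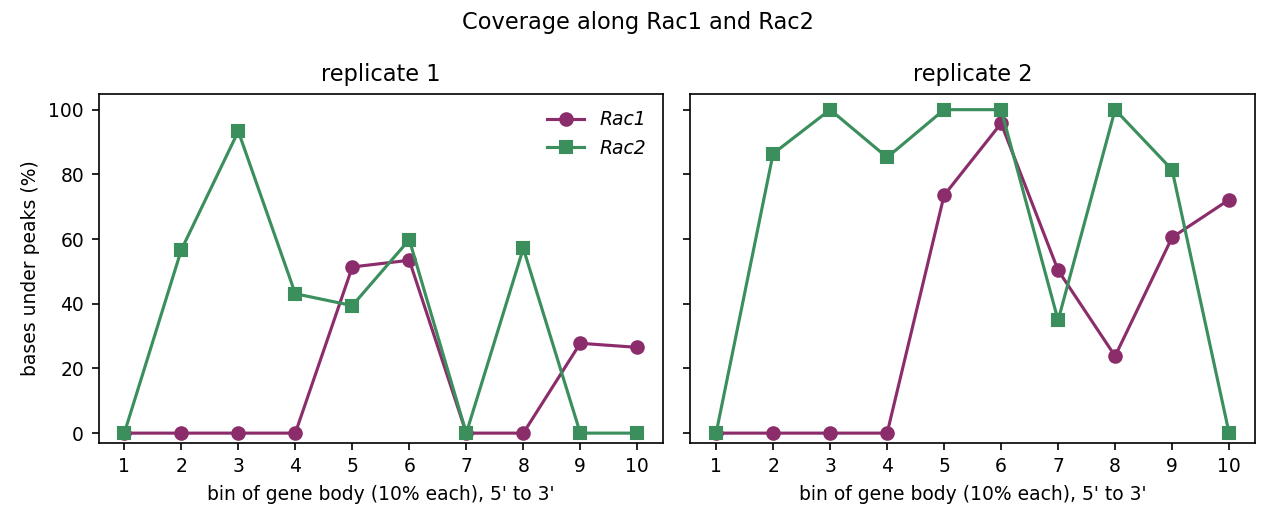
Percent of bases under peaks (y axis) in each of 10 equal bins of the gene body from 5′ to 3′ (x axis) for Rac1 (circles) and Rac2 (squares), in replicate 1 (left) and replicate 2 (right). Rac1 is bare in bins 1 to 4 and covered in bin 10, while Rac2 is covered from bin 2 and bare in bin 10, in both replicates.

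Rac2 was covered more widely in its 5′ 50% than in its 3′ 50% in both replicates, by less in replicate 2. The 5′ 50% of its body was 46.5% covered and the 3′ 50% was 23.4% covered in replicate 1, and in replicate 2 the values were 74.3% and 63.2%. Of the 1670 marked genes, 94 (5.63%) had a more widely covered 5′ side in both replicates, and Rac2 was the only one of the 4 marked members among them. Bin 10 of Rac2 had no covered base in either replicate, which held for 6.99% of 1659 marked genes of at least 2 kb. Both traits are ones seen in Rac2, so these shares do not measure how unusual its profile is. With −log10 q of at least 5, only 3.06% of Rac2 stayed covered in replicate 1. Bin 1 was bare in all 5 oxidase genes, as in 82.2% of those marked genes. The strongest Rac2 peak, in replicate 2, ran from chr15:78564261 to 78567965 with an enrichment of 5.38, and its summit fell in intron 2, a few bases before exon 3. This position held in replicate 2 only. In replicate 1 the summit of the peak over exon 3 lay in intron 3, at chr15:78565881. In the pooled and replicated lists the summit lay in intron 2, at chr15:78570048. The 61 bases around the replicate 2 summit, at chr15:78566005-78566065, are shown with exonic bases in capitals. That summit sits at the splice acceptor of the exon shown above.
Rac2 summit: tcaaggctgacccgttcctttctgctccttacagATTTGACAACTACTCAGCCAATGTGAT
The strongest Rac1 peak in replicate 2, from chr5:143514568 to 143515820 with an enrichment of 5.04, also covered exon 3, and its summit lay in intron 2 at chr5:143515180. In replicate 1 the strongest Rac1 peak was the one over exon 2, at 4.34, the highest enrichment of any member peak in that replicate. The coding genes nearest to Rac2 were Sstr3, 14.5 kb downstream with no peak, and Cyth4, 24.3 kb upstream and covered by 42.1% and 65.2%, so no peak of a neighbour reached it.

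The 3′ end of Rac1 is less certain than its middle. Its last 2.31 kb, 9.46% of the gene, overlaps Daglb, an opposite-strand lipase gene, which was covered by 17.4% outside the overlap in replicate 1 and 48.5% in replicate 2. Outside Daglb, Rac1 was covered by 14.6% and 33.6%. Rac1 also has a longer form with an extra exon of 57 bp between exons 3 and 4, at chr5:143509597-143509653, 18.4 kb from the start. That exon is shown because it marks the bare stretch of the gene, with exonic bases in capitals and 20 intronic bases on each side.
Rac1 extra exon: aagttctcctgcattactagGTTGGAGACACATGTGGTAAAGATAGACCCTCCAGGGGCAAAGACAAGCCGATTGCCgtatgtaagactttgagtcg
The extra exon had no covered base in either replicate, with the nearest peak 1.84 kb away in replicate 1 and 0.643 kb in replicate 2. In the pooled and in the replicated list a peak covered 35.1% of it. Intron 3 as a whole, 6510 bp, was covered by 4.82% in replicate 1 and 51.5% in replicate 2, so the extra exon lay in a gap of 1.86 kb in replicate 2 and of 6.59 kb in replicate 1. The deposited peaks give no measure of which form was made.

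Nos2 had no peak in replicate 1, replicate 2, the pooled list or the replicated list. The gene (ENSMUSG00000020826.8) spans chr11:78920787-78960254 on the plus strand, 39.5 kb. All 27 exons and all introns of its long transcript were at 0% in both replicates. Of the 5149 coding genes of 20 to 50 kb, 43.4% had a peak in replicate 1 and 52.5% in replicate 2, so a gene of this length without a peak was common. The bare stretch ended 2.27 kb past the gene end in replicate 1 and 2.14 kb past it in replicate 2, where a peak of 2619 bp (enrichment 3.80) and one of 7581 bp (5.90) began. Both lay over the neighbouring opposite-strand gene Lgals9, which encodes galectin-9 and was covered by 51.5% and 74.1%. On the other side no peak was found for 380 kb in replicate 1 and for 79.7 kb in replicate 2. In bulk cells, a mark carried by few cells and one below detection in all of them cannot be told apart.

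Genes that work with the listed ones differed in how far they were marked. Of 14 other oxidase genes, 2 reached 20% in replicate 1 and 3 in replicate 2 (all coding genes, 7.64% and 23.3%), and 8 had no peak in either. Cybc1, the chaperone of the membrane core, was highest (49.6% and 74.4%, in part over Hexdc), and also high was Sh3pxd2b, an organiser-like adaptor (19.2% and 54.5%). Duox1 and Duox2, oxidases of epithelia, had none. Cybb, named outside the rule as the catalytic partner of Cyba, had 1.83% and 7.48% of its 52.5 kb covered. Among subunit genes of the working complex, Cyba, Ncf1 and Ncf4 thus reached 20% in both replicates and Cybb in neither. Of coding genes of 50 to 100 kb, the class of Cybb, 6.17% reached 20% in both replicates. In the class of Cyba and Ncf1, 5 to 10 kb, 7.47% did. Cybb also lies on the X chromosome, and sex was not collected. The part of length and of X linkage in this contrast was not tested.

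Among 32 regulators of Rac and kinases of the oxidase, 7 reached 20% in replicate 1 and 16 in replicate 2, against 7.64% and 23.3% of all coding genes. The list was led by the exchange factor gene Vav1 (34.4% and 64.7%), the Dock partner gene Elmo2 (28.8% and 61.8%) and the GDP dissociation inhibitor gene Arhgdia (35.4% and 46.8%). Arhgap15 and Bcr, which switch Rac off, had no peak. Arhgap25, which also switches Rac off, had 25.3% and 54.8%, and the exchange factor genes Prex2, Tiam1 and Tiam2 had no peak; these 4 were named after their values were seen. Among 17 genes of nitric oxide and arginine metabolism the counts were 0 and 4, against 7.64% and 23.3% of all coding genes, so the count in replicate 2 was near the background. The highest were Asl, which remakes arginine (18.7% and 43.6%), Gch1, which starts the synthesis of the synthase's cofactor tetrahydrobiopterin (8.21% and 45.8%), and Qdpr, which recycles it (4.24% and 30.5%). Gucy1a1 had no peak, nor did Nos1 and Nos3, which were named outside the rule. Among 15 inducible genes of activated macrophages, 0 reached 20% in replicate 1 and 1 in replicate 2, against 7.64% and 23.3% of all coding genes. The 1 was the cytokine gene Tnf (0% and 22.2%), and Acod1, which makes itaconate, had 4.71% and 11.2%. A peak lay in 1 of the 15 in replicate 1 and 2 in replicate 2, against 29.1% and 38.3% of all coding genes. The other 13, Ccl5 and Csf2 among them, had no peak. Of coding genes of 2 to 5 kb, the class of Tnf and Csf2, 6.75% and 18.7% had one.

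**Figure D4:**
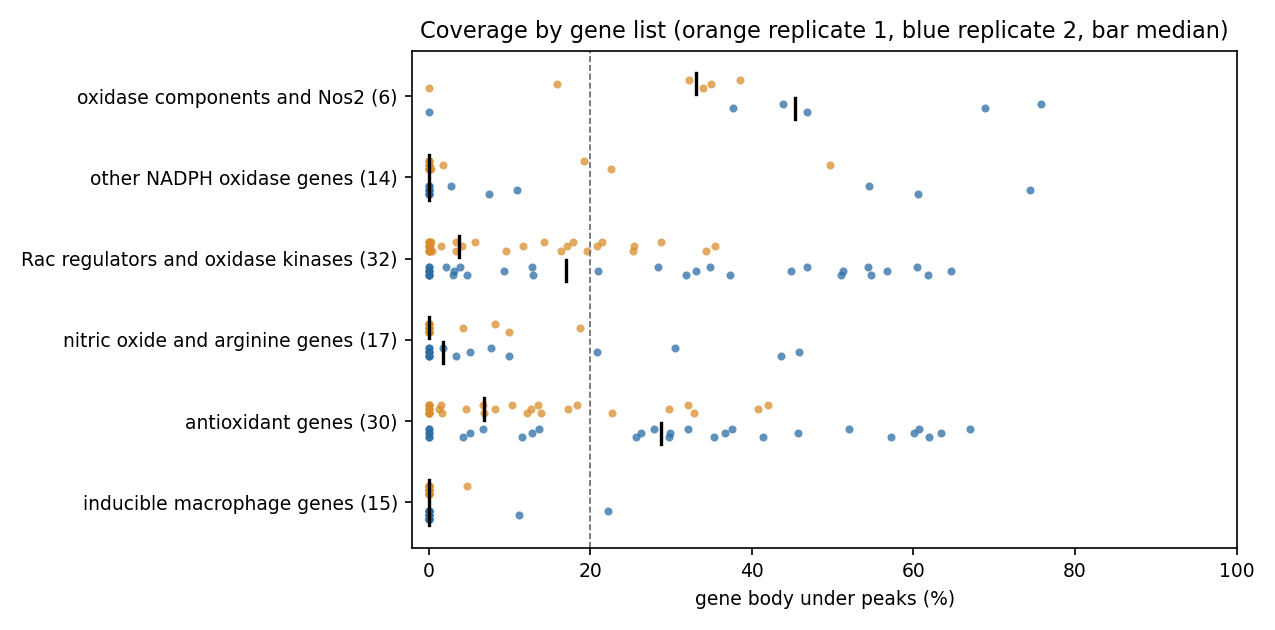
Percent of each gene body under peaks (x axis) for the 6 genes and for 5 lists of related genes (rows, number of genes in brackets), with replicate 1 in orange and replicate 2 in blue. Black bars are medians (33.1% and 45.3% for the 6 genes, 0% for the inducible genes in both replicates) and the dashed line is 20%.

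The genes most like each member in their profile over 10 bins and both replicates, 20 values, were sought among 20327 coding genes of at least 2 kb. Cyba was closest to Tpra1 and Zyx, at a mean difference of 3.57 and 4.47 percentage points per bin. Ncf1 was closest to the cathepsin gene Ctsw (5.45) and to Hsp90ab1 (6.86), and Rac1 to Fam192a (7.44) and Pik3r6 (8.28). Ncf4 and Rac2 had no near match, with Slfn3 (13.2) and Serinc1 (13.8) closest to Ncf4 and Ttc1 (15.7) and Eif3l (16.2) closest to Rac2. The profiles share libraries and peak calls, and likeness of profile says nothing of function.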

How the data were processed

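H3K36me3 ChIP-seq of unstimulated macrophages was analysed from 4 deposited mm10 peak lists: 1 per replicate, 1 of pseudoreplicated peaks from both replicates together and 1 of replicated peaks. Per the labels, libraries were made from 10 ng of DNA with fragments of 350 to 480 bp. Per the text records beside the lists, peaks of each replicate were called from its own alignments with a control. No source used here names the aligner or the caller. The deposited columns hold, for every peak, an enrichment ratio over the caller's background, a −log10 p and −log10 q, and a deposited display score, which in every peak was 10 times the −log10 p rounded down. Depth is unknown, so no counting interval is given.

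Peaks of a list were merged and intersected with GENCODE M21 genes (GRCm38, longest record per symbol) in Python 3.11.15 with numpy 2.4.6, after a test on simulated intervals. A gene was called marked from 20% of its body. Enrichment density was the sum of enrichment times covered bases over the body length. Bases were read with pysam 0.24.0 from GRCm38.p6, in which 658 of 658 RefSeq promoters checked were found unchanged. No test was run: an exact test over 2 paired values cannot give a p below 0.5, and genes are not replicates.

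The 6 genes, the 11 gene lists and the naming rule were chosen with earlier results of these data known. Named were all 6 genes, the 3 highest and 2 lowest of the related gene lists, neighbouring and overlapping coding genes, and the 2 most alike profiles per gene. The results of 1 list and of some genes the rule names are not reported here. Alternatives changed the peak limit, list, gene window, threshold, overlap and replicate. The neutrophil and macrophage lists served as cell type checks.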

Additional observations from a re-analysis of the deposited data

How the results depend on the processing

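Nos2 had 0% under all settings run. As none of the 4 lists held a peak in it, these settings could give no other value. The 4 genes marked in both replicates became 1 with peaks of −log10 q of at least 5 and 0 with a threshold of 50%; the other settings gave 2 to 5, with 5 without replicate 1 and 4 without replicate 2. A count of 3 came from bases outside other coding genes with Gm20388, which holds all of Cyba, not counted as such a gene; with it counted, Cyba had no base left and 2 genes were marked. The Rac1 minus Rac2 difference, -25.1 percentage points, ran from -31.2 to -19.0 when either replicate was left out. It was -11.9 with −log10 q of at least 5, where the replicates differed in sign (7.42 in replicate 1 and -31.2 in replicate 2), -2.28 over the 3′ 50% of the body, -12.6 from the first covered base to the gene end, a window chosen after seeing the data, and 11.0 over exon bases, where the order turned round. Cyba, 39.0% as the mean, was 22.0% with −log10 q of at least 5, 29.3% with equal numbers of peaks, 54.5% in the pooled and in the replicated list, 77.9% over the 3′ 50% of the body and 58.4% over exons. Ncf1, 57.1%, was 87.1% over the 3′ 50% of the body and 29.2% outside other coding genes, an alternative also added after seeing the data. Ncf4, 39.5%, was 23.8% with −log10 q of at least 5, 51.7% in the pooled and in the replicated list and 64.8% over exons. Rac2, 51.9%, was 27.0% over exons. The share of replicate 1 peaks found in replicate 2, 94.7%, was 100% at 1 bp and 42.1% (8 of 19) with 50% of both peaks. Beyond the windows' own construction, the cause of these shifts was not tested. No paired analysis was possible because the series has 1 group and so no second group to block by replicate; Rac1 minus Rac2 was taken within each replicate and not tested. The lists cannot show how far below the caller's limit an uncovered stretch lay.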

Other observations

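The genes listed as antioxidant, some of which act in the pentose phosphate pathway or on haem, differed in how far they were marked. Of 30 such genes, 6 reached 20% of the body in replicate 1 and 18 in replicate 2, against 7.64% and 23.3% of all coding genes. In both replicates 6 did, against 7.62%. The medians were 6.80% and 28.8%, and 6 genes had no peak in either replicate. Hmox1, which breaks down haem, had 42.0% in replicate 1 and 67.0% in replicate 2. Taldo1, of the pentose phosphate pathway, had 40.7% and 61.9%, and Cat, which encodes catalase, had 32.8% and 63.4%. Gpx1 and Gss, of glutathione metabolism, had no peak.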
